A study of Mus musculus with 48 samples.

Results

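Of the 37620 genes in the deposited table, 10 genes of the brain's borders were followed in the nucleus accumbens shell of mice bred for ethanol preference: Ttr, Kl, Folr1, Slc6a13, Slc6a20a, Dcn, Igf2, Col1a1, Col1a2 and Ptgds. They were chosen by name as genes of choroid plexus epithelium or of leptomeningeal fibroblasts, by a rule that used no measured value, although earlier results of these data were known. The choroid plexus secretes cerebrospinal fluid into the ventricles, and its epithelium makes very large amounts of transthyretin. Leptomeningeal fibroblasts wrap the brain and enter it along vessels, where they lay down collagen and proteoglycans and carry transporters for amino acids. The accumbens shell is a ventral striatal region of the reward circuit and holds no choroid plexus of its own.

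The mice came from the heterogeneous stock-collaborative cross (HS-CC), an outbred stock, at generation 4 of breeding for High or for Low preference of ethanol. The groups were 12 females and 12 males of the High line and 12 females and 12 males of the Low line, each mouse with 1 poly(A) library from shell tissue taken by laser microdissection. The labels name no age, alcohol exposure, family or batch, and each mouse counted as an independent sample. Each selected line was 1 population, so a difference between the lines cannot be told apart from drift. Library numbers serve only as names. Deposited gene totals ran from 13579559 to 14561911, and the lowest median correlation of a library with the others was 0.967, in High male 1. Striatal transcripts were high in each library, with Ppp1r1b, the dopamine-regulated phosphatase inhibitor of medium spiny neurons, between 19811 and 35073 and the enkephalin precursor Penk between 23753 and 37812. Cortical neuron transcripts varied widely: Slc17a7, the vesicular glutamate transporter of cortical pyramidal cells, ran from 2 to 3886 with a median of 15.5. High male 1, High male 10 and Low male 6 stood apart, where the mean of the 2 tested cortical markers lay 3.46, 2.94 and 3.52 above that of their group on the log2 scale.

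Values below are deposited normalised counts unless a log2 scale is named. A gene was tested when it reached 1 ppm of the mean library total, which equals 14.1 deposited counts, in at least 12 libraries. This left 15350 genes, among them 8 of the 10 border genes; Ttr and Folr1 were too low. Line and gender differences were fitted with limma on log2(value + 0.5 ppm) over all tested genes, and a difference was called when its adjusted p (Benjamini-Hochberg) fell under 0.05. The log2 scale with this pseudocount understates changes of low genes.

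Promoter sequences are shown first, and no expression value was tested against them. RefSeq promoter entries (GRCm38.p6) were used for 6 of the 10 genes: Kl, Slc6a13, Slc6a20a, Igf2, Col1a2 and Ptgds. Promoters of Ttr, Folr1, Dcn and Col1a1 were not searched, so the motif statements below do not cover those genes. The 250 bases before the start are given 5′ to 3′ on the strand of the gene for the GABA and taurine carrier Slc6a13 (chr6:121300038-121300287, plus strand) and the collagen gene Col1a2 (chr6:4505368-4505617, plus strand). They are also given for the proline carrier Slc6a20a (chr9:123678833-123679082, minus strand) and the growth factor Igf2 (chr7:142657497-142657746, minus strand, 1 of its 4 entries), the pair with the highest Spearman correlation between mice. Capitals mark a match to GGATTA, the core bound by Otx homeodomain factors of choroid plexus, or to CCAAT, each searched on both strands (TAATCC and ATTGG on the reverse).
Slc6a13: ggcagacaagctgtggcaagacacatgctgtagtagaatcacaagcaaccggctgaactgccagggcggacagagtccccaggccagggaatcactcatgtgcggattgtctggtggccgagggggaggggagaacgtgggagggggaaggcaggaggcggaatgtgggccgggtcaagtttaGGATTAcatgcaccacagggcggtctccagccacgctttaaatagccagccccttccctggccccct
Col1a2: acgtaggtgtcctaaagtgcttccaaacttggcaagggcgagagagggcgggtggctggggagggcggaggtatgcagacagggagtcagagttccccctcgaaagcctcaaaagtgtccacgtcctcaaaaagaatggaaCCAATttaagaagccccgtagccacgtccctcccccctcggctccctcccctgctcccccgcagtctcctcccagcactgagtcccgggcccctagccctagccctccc
Slc6a20a: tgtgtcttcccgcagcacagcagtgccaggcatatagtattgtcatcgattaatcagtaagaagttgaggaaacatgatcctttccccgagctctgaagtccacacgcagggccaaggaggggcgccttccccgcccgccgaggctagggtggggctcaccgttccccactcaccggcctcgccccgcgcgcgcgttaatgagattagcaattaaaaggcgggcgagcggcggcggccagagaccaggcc
Igf2: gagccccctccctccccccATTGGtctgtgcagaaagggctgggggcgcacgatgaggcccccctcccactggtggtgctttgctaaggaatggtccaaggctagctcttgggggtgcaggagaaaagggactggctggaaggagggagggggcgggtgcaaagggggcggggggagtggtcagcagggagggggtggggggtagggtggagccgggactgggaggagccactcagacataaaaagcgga
The Slc6a13 entry shown, 1 of several, held GGATTA 67 bases before its start, and no other of the 11 entries held it. Among 32851 promoters of the same length 6.25% held that motif. CCAAT stood 109 bases before the start of Col1a2 and 115 bases before that of another Slc6a13 entry. As ATTGG it stood 231 bases before this start of Igf2, and 33.8% of all promoters held it. Slc6a20a held neither. TATAAA, searched on both strands, was in none of the 11 entries of the 6 genes against 12.4% of all promoters. A match describes letters only.

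Several defining transcripts of choroid plexus epithelium, Ttr among them, were near 0 in all 48 libraries. Ttr, the carrier of thyroxine and retinol in cerebrospinal fluid and the leading transcript of that epithelium, was listed at 0 in 31 of 48 libraries. Its values ran from 0 to 6 with a median of 1 in High females, from 0 to 3 with a median of 0 in High males, from 0 to 10 with a median of 0 in Low females and from 0 to 2 with a median of 0 in Low males. The libraries at the top were Low female 11 with 10 and High female 6 with 6, and all 4 groups overlapped. Folr1, the receptor that carries folate across choroid plexus into the fluid, was listed at 0 in 20 of 48 libraries. Its highest values were 5 in High females, 6 in High males, 8 in Low females and 9 in Low males, with medians of 0.5, 1, 1 and 0.5. The libraries highest in Folr1 were Low male 1 (9), Low male 2 (8) and Low female 9 (8), in which Ttr was at 0, 0 and 2. Folr1 overlaps Anapc15 on the opposite strand, a gene with a mean value of 301; strand was not given, so reads of the pair could not be told apart.

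Across the 48 libraries the tight junction gene Cldn2 reached at most 2, the bicarbonate transporter Slc4a5 at most 5, the potassium channel Kcnj13 at most 5, the secreted Wfdc2 at most 6 and the membrane protein Tmem72 at most 8. Other choroid markers under the filter reached more: 1500015O10Rik 28, the prolactin receptor Prlr 25, the water channel Aqp1 21, the sulfate carrier Slc13a4 21, the zinc transporter Slc39a4 20 and Calml4 17. Aqp1 and Slc13a4 were above 0 in every library, with medians of 7.5 and 7. Of 27 choroid plexus markers, 9 passed the filter: Kl, Clic6, Otx2, Enpp2, Ace, Rdh5, Mfrp, Slc5a5 and Igfbp2. Several of these are also made by other brain cells; Enpp2, the autotaxin gene, is strong in oligodendrocytes and had a median of 628. The summed value of the 24 markers other than Ttr, Kl and Folr1 ran from 1974 to 2806 in High females, from 2043 to 2727 in High males, from 2061 to 2856 in Low females and from 2107 to 3054 in Low males. This sum rests mostly on Rdh5 and Enpp2, with means of 952 and 625.

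Kl encodes klotho, a single-pass membrane protein that serves as co-receptor for the hormone FGF23 and is made in choroid plexus and also in neurons. It was measured at 80, 104.5 and 142 (lowest, median and highest) in High females and at 75, 102.5 and 166 in High males. In Low females it was 66, 83.5 and 125, and in Low males 30, 76.5 and 129. The lines overlapped, with 20 of 24 High mice exceeding the median of Low and 4 of 24 Low mice above the High median. Kl averaged 108 ± 23.5 in High and 84.0 ± 22.6 in Low (SD, n = 24 each), a log2 difference of 0.35 ± 0.10 (SE) that missed the threshold (limma adjusted p = 0.12; unadjusted p = 0.000898). It was 0.26 ± 0.14 in females and 0.44 ± 0.14 in males (adjusted p = 1.00 and 0.413 by limma), and the 2 did not differ beyond their error (interaction -0.18 ± 0.20, adjusted p = 1.00). Kl was present in every library, including the 31 with Ttr at 0.

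**Figure D1:**
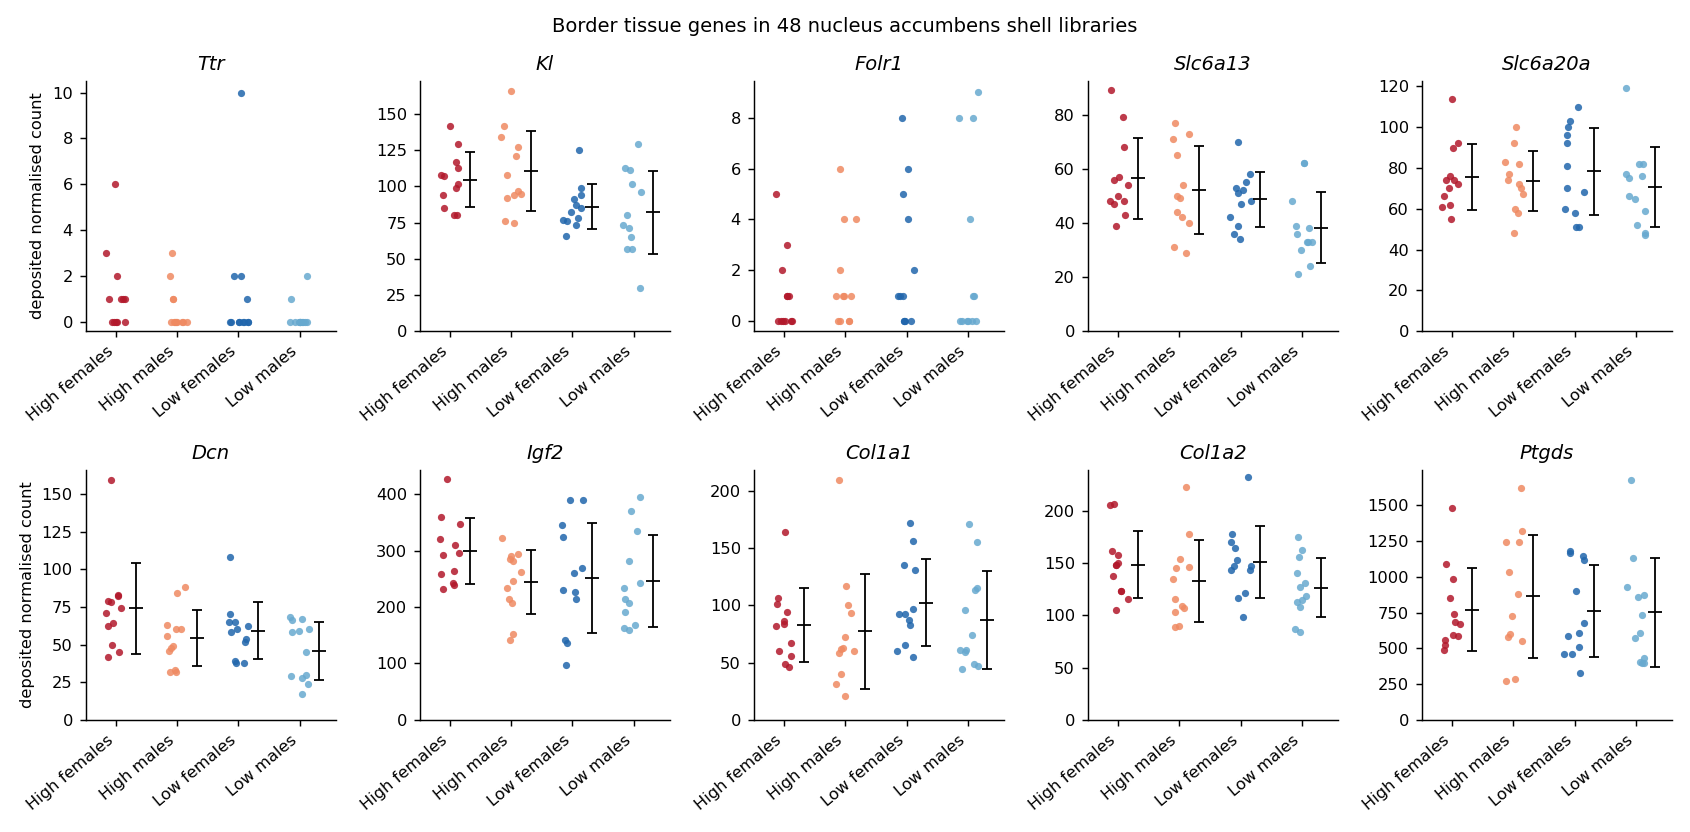
Deposited normalised counts of the 10 border tissue genes, 1 point per library, in females and males of the High line and then of the Low line (12 each); black marks give mean and SD, left out for Ttr and Folr1, which hold many zeros. Ttr reached at most 10 and Folr1 at most 9, the 4 groups overlap for every gene, and Dcn has 1 library at 159 in High females.

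The transporters of meningeal fibroblasts were present in each library at modest level. Slc6a13 encodes a carrier of GABA and taurine that sits in leptomeninges rather than in neurons. Its lowest, median and highest values were 39, 52 and 89 in High females, 29, 49.5 and 77 in High males, 34, 49.5 and 70 in Low females, and 21, 34.5 and 62 in Low males. Low males lay lowest by median, and all groups overlapped. It averaged 54.3 ± 15.4 in High and 43.5 ± 12.6 in Low (SD, n = 24 each), a log2 difference of 0.28 ± 0.10 (limma adjusted p = 0.299; 20 of 24 High mice exceeded the median of Low). The difference was 0.18 ± 0.14 in females and 0.39 ± 0.14 in males (limma adjusted p = 1.00 and 0.534), with an interaction of -0.21 ± 0.20.

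Slc6a20a encodes a sodium-driven carrier of proline and other imino acids. It measured 55, 73 and 114 in High females, 48, 73 and 100 in High males, 51, 75.5 and 110 in Low females, and 47, 70.5 and 119 in Low males (lowest, median and highest). The medians nearly coincided, and the log2 difference between High and Low was 0.02 with a 95% interval from -0.16 to 0.20. Annotation limits this gene: 34.3% of its 25-base words also occur in other genes, and 21.3% occur in its neighbour Slc6a20b. Slc6a20b itself had a mean of 1.19, and the overlapping Gm17200 on the opposite strand had a mean of 151.

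Among the matrix genes of fibroblasts, Dcn and type I collagen differed in where their extreme libraries lay. Dcn encodes decorin, a small proteoglycan that binds collagen fibrils. Its lowest, median and highest values were 42, 72.5 and 159 in High females, 32, 52.5 and 88 in High males, 38, 59 and 108 in Low females, and 17, 51.5 and 68 in Low males. Females had the larger median in both lines, and High female 6 stood at 2.67 times the median of all libraries. Over both lines Dcn averaged 66.6 ± 25.9 in females and 50.1 ± 18.9 in males (SD, n = 24 each), a log2 difference of 0.38 ± 0.13 (limma adjusted p = 0.982; unadjusted p = 0.00593). Without High female 6 it was 0.33. Between the lines it averaged 64.2 ± 26.5 in High and 52.5 ± 19.8 in Low, a log2 difference of 0.26 ± 0.13 (limma adjusted p = 0.559).

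Col1a1 and Col1a2 encode the chains that join into type I collagen, the main fibre of meninges. Col1a1 measured 46, 83 and 164 in High females, 21, 62.5 and 209 in High males, 55, 92 and 172 in Low females, and 44, 67.5 and 171 in Low males (lowest, median and highest). Both extremes of Col1a1 lay in High males, with High male 8 at 21 and High male 7 at 209. Col1a2 measured 105, 148 and 207 in High females, 89, 125.5 and 223 in High males, 98, 147 and 232 in Low females, and 84, 123 and 175 in Low males. Its highest library was Low female 11, which was also the highest in Ttr. The log2 difference between High and Low was -0.26 ± 0.17 for Col1a1 and 0.01 ± 0.09 for Col1a2 (limma adjusted p = 0.707 and 0.982), and neither passed. The sign of Col1a2 was not stable: it turned below 0 in 7 of 48 fits that left out 1 mouse and, at -0.021, with library weights. Its second highest library was High male 1, which stood apart in cortical markers, and without that mouse its difference was -0.020.

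Igf2 encodes an imprinted growth factor that in the adult brain comes mainly from leptomeninges and choroid plexus. It measured 232, 293.5 and 427 in High females, 142, 254.5 and 323 in High males, 97, 245 and 390 in Low females, and 160, 224 and 395 in Low males (lowest, median and highest). High females had the largest median, and the groups overlapped. The log2 difference between High and Low was 0.33 ± 0.17 in females and 0.01 ± 0.17 in males (limma adjusted p = 1.00 and 0.99), with an interaction of 0.31 ± 0.24 (adjusted p = 1.00). Its spread between mice, as absolute log2 deviation from the group median, differed by -0.17 ± 0.08 between High and Low (limma adjusted p = 0.998).

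Ptgds encodes the enzyme that makes prostaglandin D2 and is secreted into cerebrospinal fluid; leptomeninges, choroid plexus and oligodendrocytes all make it. It was the highest of the 10 genes, at 491, 675.5 and 1483 in High females, 270, 801 and 1620 in High males, 330, 642 and 1179 in Low females, and 395, 669.5 and 1679 in Low males (lowest, median and highest). Each group spanned most of the range of the others. The line difference was 0.11 ± 0.18 on the log2 scale (limma adjusted p = 0.912), and the gender difference was 0.00 with a 95% interval from -0.37 to 0.37.

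Per kilobase of exon, mean levels in deposited counts were 477 for Ptgds and 45.5 for Igf2, followed by 18.2 for Slc6a20a and 16.8 for Slc6a13. Col1a1 had 13.3, Col1a2 11.3, Kl 10.3 and Dcn 9.99. From Slc6a20a to Dcn the SDs over libraries ran from 2.76 for Kl and Col1a2 to 6.27 for Col1a1. Each gap between neighbours in that stretch was smaller than the SD of either gene of the pair. This SD is the spread between libraries, and whether mean levels differ between genes was not tested. Folr1 had 0.834 and Ttr 0.703 deposited counts per kilobase. The length used was the union of all annotated exons. For Dcn it was 5838 bases, against 1758 in its first annotated transcript, and for Col1a1 6563 against 5930. The order of the genes thus depends on the length chosen. In bulk tissue a smaller share of border cells and less RNA per border cell cannot be told apart.

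No border gene was called between the lines. Of the 8 tested genes 0 passed for High minus Low, where 43 of 15350 genes (0.28%) were called. At an unadjusted p under 0.05 there were 2 of 8, Kl and Slc6a13, against 9.07% of all tested genes. The log2 difference was above 0 for 7 of 8, with a median of 0.14, and for 48.5% of all tested genes, with a median of 0.00. Of these 7, Slc6a20a (0.02) and Col1a2 (0.01) lay close to 0 and turned sign in 5 and 7 of 48 fits that left out 1 mouse. Within females 0 of 8 passed, against 4 genes in all (0.0261%). Within males 0 of 8 passed in limma and 0 genes did in all (0%), with 1064 genes and 2 border genes at an unadjusted p under 0.05. The interaction of line and gender called 0 of 8 and 0 genes in all (0%), with 368 genes and 0 border genes at an unadjusted p under 0.05. A p that misses the threshold does not show that values did not differ.

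Between the genders 0 of 8 passed as well, against 12 genes in all (0.0782%). All 8 log2 differences of females minus males were above 0, with a median of 0.18, against 47.7% of tested genes and a median of 0.00. At an unadjusted p under 0.05 there were 3 of 8, Dcn, Col1a2 (0.21 ± 0.09) and Slc6a13 (0.23 ± 0.10), against 4.21% of tested genes. Some of these 8 genes were correlated across mice, so the 8 signs are not independent. The count also includes values close to 0: Ptgds (0.00058) turned below 0 in 22 of 48 fits that left out 1 mouse and with a pseudocount of 2 ppm, and Kl (0.03) in 1 of 48. Spread between mice was not called for any either: 0 of 8 for High minus Low, with 9 genes in all (0.0586%), and 0 of 8 for females minus males in limma, with 0 genes in all (0%). Unadjusted, these were 1 of 8 (Igf2) against 3.97% of tested genes and 1 of 8 (Kl, -0.16 ± 0.06) against 3.87%, which was 594 genes.

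**Figure D2:**
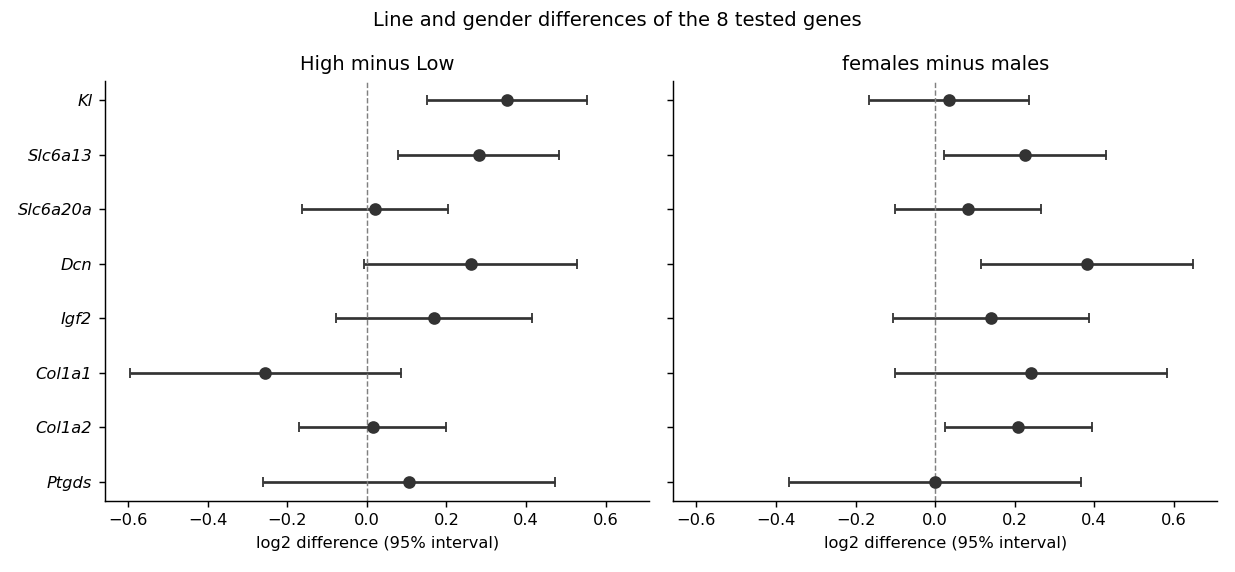
Log2 differences of the 8 tested border genes with 95% intervals from limma, High minus Low on the left and females minus males on the right. Intervals of Kl and Slc6a13 lie above 0 for line, and those of Dcn, Col1a2 and Slc6a13 for gender, before any adjustment for the 15350 genes tested.

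Variation between mice of the same group was wide for some of these genes. The within-group SD on the log2 scale was 0.66 for Ptgds and 0.61 for Col1a1, larger than in 96.5% and 95.3% of tested genes. Dcn had 0.47 and Igf2 0.44, larger than in 89.3% and 87.0% of genes, while Kl, Slc6a13, Col1a2 and Slc6a20a lay between 0.32 and 0.35. The median over all tested genes was 0.23.

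The libraries at the extremes were not the same from gene to gene. Over the 8 tested genes, 21 of 48 libraries were never among the 5 highest, 17 were there for 1 gene, 6 for 2, 2 for 3 and 2 for 4. High female 6 was among the 5 highest for Slc6a13, Slc6a20a, Dcn and Col1a2 and had 6 for Ttr. High female 12 was there for Kl, Slc6a13, Col1a1 and Col1a2. Low female 11 was there for Slc6a20a, Igf2 and Col1a2 and had 10 for Ttr. As a summary, each library was scored by its mean z value over the fibroblast genes Dcn, Igf2, Col1a1 and Col1a2, a description chosen with the values known. The score was highest in High female 6 (1.49), Low female 11 (1.26) and High female 12 (1.13) and lowest in High male 8 (-1.85). Its group medians were 0.25 in High females, -0.20 in High males, 0.07 in Low females and -0.40 in Low males.

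Other marker lists gave a mixed picture of those libraries. In High female 6 the 26 leptomeningeal markers outside the 10 genes summed to 1239, rank 5 of 48 from the top, and 10 mural markers to 3888, rank 3, while the 24 choroid markers summed to 1974, the lowest of all 48. Its Tagln value of 300, a smooth muscle marker, was the highest of all libraries, and its Col3a1 value was 82 against a median of 36.5. Low female 11 ranked 14 for the leptomeningeal sum (1119) and 3 for the choroid sum (2856), but it was among the 5 highest libraries for 6 of 20 tested leptomeningeal markers and for 1 of 8 choroid ones. High female 12 ranked 20 and 27. High male 8, lowest in the fibroblast score and in Col1a1 (21), ranked 33 for the leptomeningeal sum (914) and 8 for the choroid sum (2726). Low male 2, the lowest in Dcn with 17, was also the lowest of 48 for the leptomeningeal sum, 739 against a median of 999.5. At the other end, Low female 12 (1449) and Low male 4 (1447) had the highest leptomeningeal sums, with fibroblast scores of 0.78 and -0.49. Low male 4 was also the highest for the choroid sum, at 3054. The part of border tissue in any line or gender value was not tested.

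Across mice, the border genes varied together only loosely. All 45 pairs were correlated over 48 mice on the log2 scale with the group mean removed, with permutation p values from 100000 resamples. The median rho was 0.09, and 33 of 45 were above 0. A single pair passed by Spearman after adjustment, Slc6a20a with Igf2 (rho = 0.52, permutation p = 0.00027, adjusted p = 0.0121; r = 0.44, permutation p = 0.00191, adjusted p = 0.043). Within groups r was 0.41 in High females, 0.46 in High males, 0.42 in Low females and 0.51 in Low males, and it was 0.47 without the 2 mice most extreme in Slc6a20a. Slc6a13 with Slc6a20a passed by Pearson alone (r = 0.48, permutation p = 0.00072, adjusted p = 0.0324; rho = 0.41, permutation p = 0.00376, adjusted p = 0.0846). That r was 0.16 in High females, 0.29 in High males, 0.78 in Low females and 0.65 in Low males, and 0.40 without the 2 most extreme mice.

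The next pairs by rho did not pass: Dcn with Igf2 at 0.39 (adjusted permutation p = 0.101), Slc6a13 with Col1a2 at 0.36 (0.15), with Igf2 at 0.32 (0.268) and with Dcn at 0.30 (0.276). Dcn with Col1a2 had 0.29 (0.308) and Igf2 with Col1a1 0.26 (0.421). The collagen chains, which form 1 protein, had a rho of 0.04 across mice (r = 0.06). Among the choroid genes rho was -0.16 for Ttr with Kl, -0.01 for Ttr with Folr1 and -0.10 for Kl with Folr1. The values of Ttr and Folr1 are mostly 0 to 2, which limits what any correlation with them can show.

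**Figure D3:**
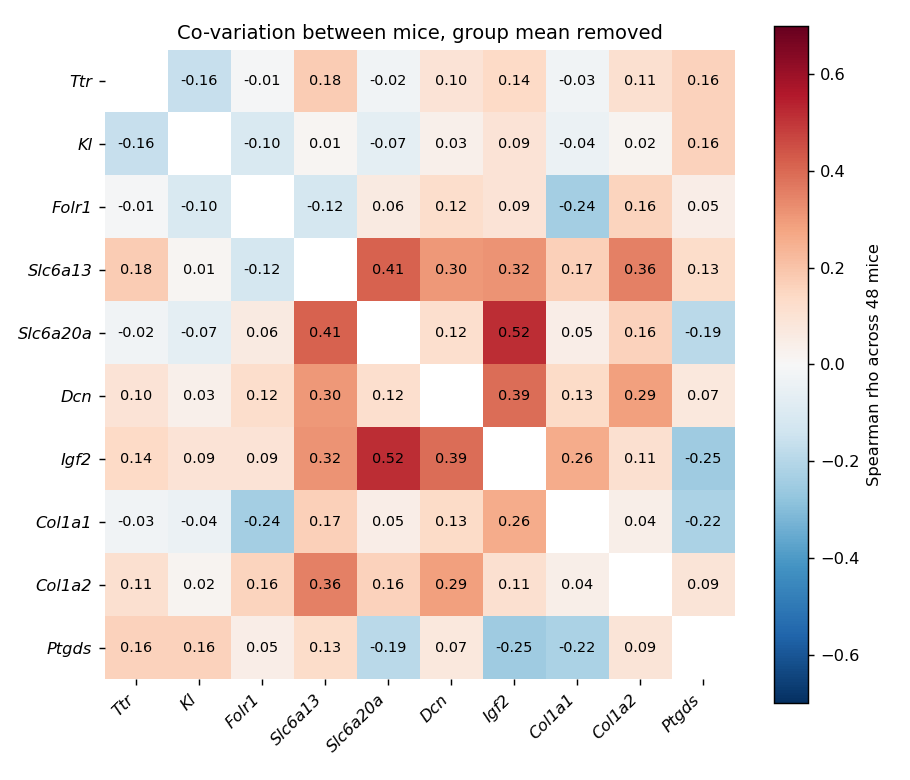
Spearman rho of each pair of the 10 genes across 48 mice on the log2 scale with the mean of each group removed. The strongest cell is Slc6a20a with Igf2 at 0.52, Slc6a13 with Slc6a20a follows at 0.41, and Col1a1 with Col1a2 is at 0.04.

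Each gene was also set against the per-mouse mean of 12 marker lists without the 10 genes, 120 relations in all, of which 8 passed by Spearman. Dcn varied with the 20 tested leptomeningeal markers (rho = 0.71, r = 0.74, each permutation p = 1e-05, the smallest that 100000 permutations can give, adjusted p = 0.0012 and 0.0006). Its r lay between 0.56 and 0.84 in the 4 groups and was 0.69 without the 2 most extreme mice. Dcn also varied with mural markers (rho = 0.57, permutation p = 6e-05, adjusted p = 0.0024; r = 0.57, adjusted p = 0.002) and with endothelial markers (rho = 0.44, permutation p = 0.00182, adjusted p = 0.0273; r = 0.41, adjusted p = 0.0536). The genes most like Dcn over the 48 mice, by Pearson r among all tested genes, were Bgn (0.67), Fbln5 (0.67) and Tagln (0.67). Bgn encodes biglycan, a close relative of decorin, Fbln5 the elastic fibre protein fibulin 5, and Tagln transgelin of smooth muscle.

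No other fibroblast gene passed with the leptomeningeal list. Slc6a13 had a rho of 0.37 (adjusted permutation p = 0.109), Igf2 0.36 (0.109), Col1a2 0.27 (0.302), Slc6a20a 0.17 (0.632), Ptgds 0.16 (0.656) and Col1a1 0.03 (0.963). Whether these differ from the rho of Dcn was not tested.

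Ptgds varied with oligodendrocyte markers (rho = 0.45, permutation p = 0.00163, adjusted p = 0.0273; r = 0.50, adjusted p = 0.00744), with r between 0.32 and 0.68 in the 4 groups and 0.40 without the 2 most extreme mice. The genes most like it were Galnt6 (0.61), Lpar1 (0.55), a lysophosphatidic acid receptor, and Uap1l1 (0.55). Folr1 varied with the 13 tested ependymal markers (rho = 0.61, permutation p = 2e-05, adjusted p = 0.0012; r = 0.65, adjusted p = 0.0006), with r between 0.54 and 0.78 in the 4 groups and 0.55 without the 2 most extreme mice. The 3 libraries highest in Folr1, Low male 1, Low male 2 and Low female 9, ranked 2, 6 and 1 of 48 in summed ependymal value, at 2136, 2006 and 2316 against a median of 1531.5. Folr1 did not pass with the 8 tested choroid markers (rho = 0.11, adjusted permutation p = 0.769). That list leaves out the choroid markers under the filter, such as Cldn2 and Kcnj13, and includes Enpp2, which is strong in oligodendrocytes. It therefore cannot show whether Folr1 varied with choroid plexus.

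Col1a1 varied against 3 of the 4 glial and ependymal lists: rho was -0.47 with ependymal markers (permutation p = 0.00081, adjusted p = 0.0243), -0.46 with astrocyte markers (permutation p = 0.00107, adjusted p = 0.0257) and -0.45 with microglial markers (permutation p = 0.00163, adjusted p = 0.0273). By Pearson the ependymal and astrocyte relations passed (r = -0.46 and -0.52, adjusted permutation p = 0.0226 and 0.0042) and the microglial one did not (r = -0.42, adjusted permutation p = 0.0525). The oligodendrocyte list did not pass (rho = -0.11, adjusted permutation p = 0.769). The genes most like Col1a1 were Rpap1 (0.77), Gigyf1 (0.77) and Carmil2 (0.76), none of them a matrix gene. Its transcript has a GC content of 58.9%, above 92.6% of tested genes, while that of Dcn, at 37.4%, is above 1.6%. Ptgds, Igf2, Col1a2 and Folr1 also lie high in GC content, above 83.4%, 80.6%, 79.8% and 73.4% of tested genes.

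Library measures were therefore set beside the genes, a step added after the data were seen, with 20 relations in all. The slope of log2 value on transcript GC content in each library varied with Col1a1 (rho = 0.68, r = 0.67, each permutation p = 1e-05, the smallest possible, adjusted p = 0.0002; r = 0.63 without the 2 most extreme mice). It also varied with Folr1 in the other direction (rho = -0.49, permutation p = 0.00047, adjusted p = 0.0047; r = -0.45, adjusted p = 0.0121). The other genes did not pass, those of high GC content included, with rho of -0.17 for Ptgds, -0.10 for Igf2 and 0.06 for Col1a2. The median slope per 10 points of GC percent was 0.00 in High females, -0.04 in High males, 0.03 in Low females and -0.01 in Low males on the log2 scale. No gene passed with the share of reads in last exons. The part of GC content in the Col1a1 values was not tested.

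**Figure D4:**
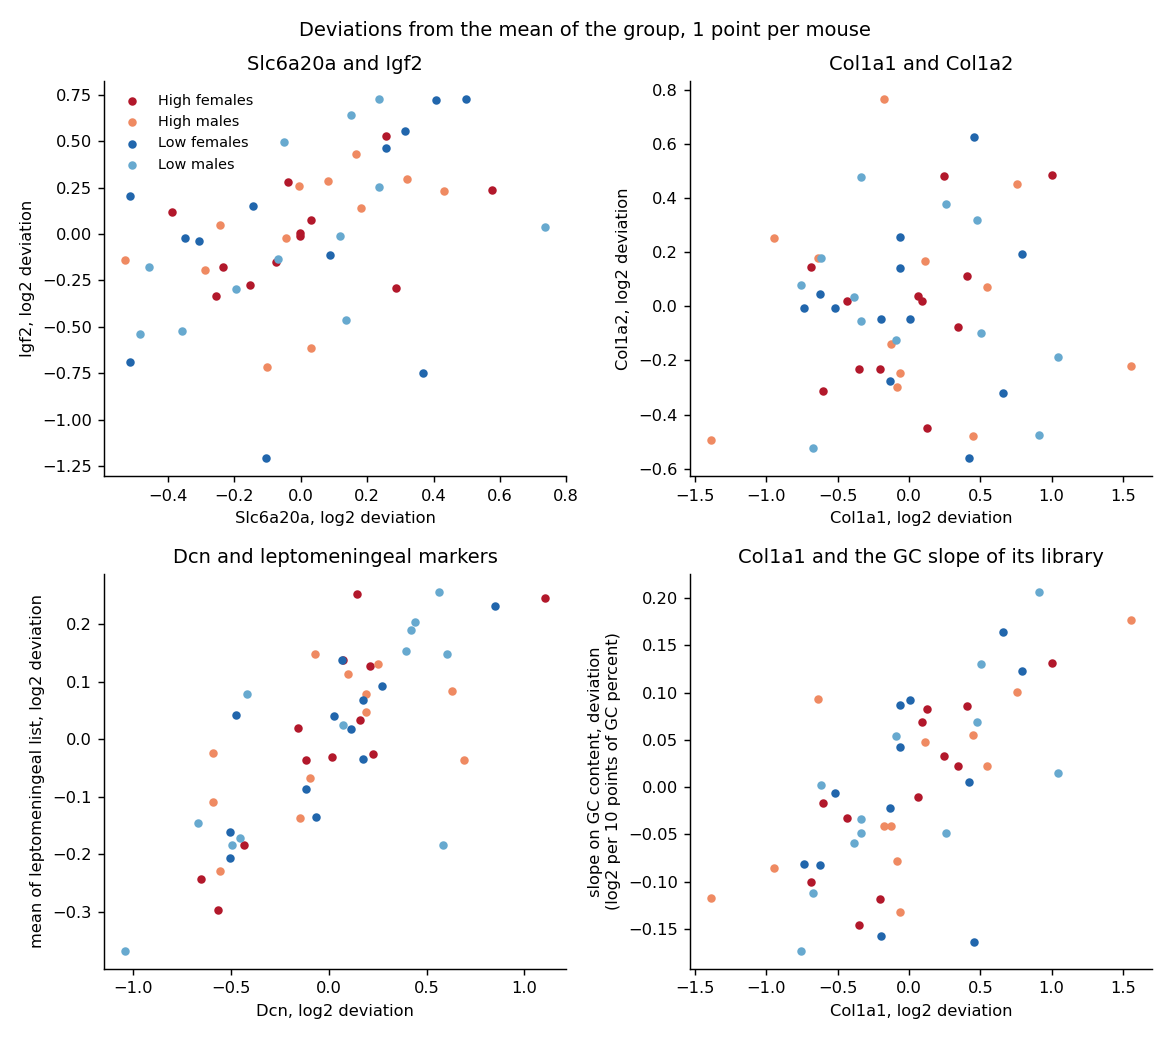
Deviations of single mice from the mean of their group on the log2 scale, 48 points a panel, coloured by group: Slc6a20a and Igf2, Col1a1 and Col1a2, Dcn and the mean of 20 leptomeningeal markers, and Col1a1 and the GC slope of its library. The Spearman correlation is 0.52, 0.04, 0.71 and 0.68 in that order.

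The genes most like the remaining ones were on neither the leptomeningeal nor the choroid marker list. For Slc6a20a they were Slc19a3 (0.59), a thiamine transporter, Mnd1 (0.56) and Atp13a5 (0.55), and for Igf2 Onecut2 (0.60), Nmbr (0.57) and again Slc19a3 (0.55). For Slc6a13 they were Thsd4 (0.55), Kcnj2 (0.54) and Birc3 (0.53), for Col1a2 Thada (0.56), Gm15998 (0.53) and Nipbl (0.52), and for Kl Dnajb4 (0.56), Sdcbp2 (0.53) and Stard13 (0.52). These are Pearson r over 48 mice, picked as the highest of all tested genes.

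The exon table showed where along each gene the values lay. Igf2 had 97.1% of its summed exon value in its last exon, which makes up 88.6% of the length of its first annotated transcript, and the exons at its 5′ end held 0 to 3 in each library. The share of Igf2 was above that of 95.1% of 14045 tested genes with 2 or more listed exons, where the median was 58.8%. Kl had 85.5% in its last exon against 45.0% of the length, and Slc6a20a 68.4% against 37.5%. Ptgds had 21.6% against 13.7%, Col1a1 30.1% against 26.5% and Col1a2 30.9% against 19.2%. Value shares cover all listed exons, but length shares cover the first annotated transcript only, so the 2 rest on different exon models. For Kl that transcript has 5118 bases and the union of annotated exons 9328. For Kl the last exon averaged 91.6 ± 20.3 in High and 72.3 ± 18.8 in Low, and all other exons together 16.0 ± 9.1 in High and 11.9 ± 7.8 in Low (SD, n = 24 each). Both parts of Kl thus had the larger mean in High, without a test of either. The same split for Dcn gave 34.1 ± 14.2 in High and 25.5 ± 9.8 in Low for the last exon, and 30.1 ± 14.7 and 27.0 ± 11.3 for the others. Annotation limits Igf2, since 62.1% of its 25-base words occur in Gm49394, a read-through annotation not in the deposited table.

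**Figure D5:**
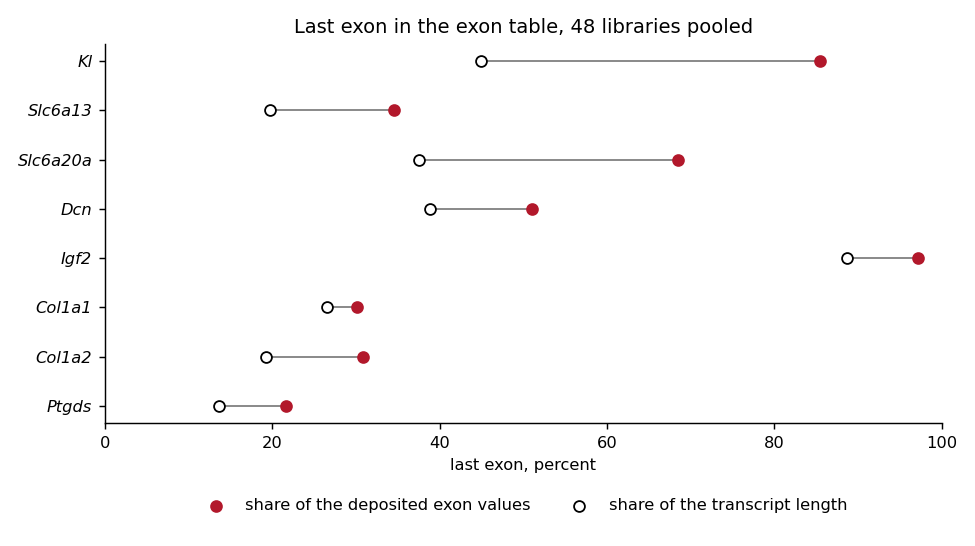
Share of the last exon in the summed values of all listed exons in 48 libraries (filled), in percent, for the 8 tested genes. Open points give its share of the length of the first annotated transcript. The filled point lies to the right of the open one for all 8, most widely for Kl (85.5% and 45.0%) and Slc6a20a (68.4% and 37.5%).

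Neighbouring genes of each pathway were looked at through lists written with earlier results known, and 0 members were called in any of the 20 lists for line or for gender. Unadjusted counts for High minus Low stand against 9.07% of all tested genes, and counts such as 1 of 12, 1 of 10 and 2 of 17 below lie close to that share. In the klotho list, 4 of 7 genes were tested; Fgfr1 was 759 ± 133 in High and 755 ± 139 in Low, while FGF23 itself (Fgf23) reached at most 6 and the relative Klb at most 15. Unadjusted, 1 of the 4 passed, Kl itself, and Fgfr3 was next (963 ± 103 in High, 934 ± 117 in Low, limma adjusted p = 0.818). In the insulin-like growth factor axis 12 of 13 were tested and 1 passed unadjusted, the mRNA-binding protein gene Igf2bp2 (60.2 ± 52.3 in High, 34.7 ± 29.0 in Low, adjusted p = 0.431). The binding protein Igfbp4 was next (867 ± 153 and 789 ± 164, adjusted p = 0.557). H19, the imprinted neighbour of Igf2, reached at most 2.

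Among carriers of GABA, taurine, glycine and proline, 10 of 12 were tested; Slc6a13 alone passed unadjusted, and the taurine transporter Slc6a6 was next (1133 ± 189 in High, 1224 ± 192 in Low, adjusted p = 0.62). Slc6a12, the betaine and GABA carrier closest to Slc6a13, reached at most 15. In the list of retinol and thyroid hormone transport, 11 of 13 were tested and 2 passed unadjusted: Rbp4, the retinol carrier that binds transthyretin (298 ± 104 in High, 379 ± 108 in Low, limma adjusted p = 0.284), and Aldh1a1, which makes retinoic acid (81.2 ± 19.7 and 65.8 ± 24.9, adjusted p = 0.299). In folate transport 4 of 6 were tested and 1 passed unadjusted, the reduced folate carrier Slc19a1 (176 ± 20.8 in High, 189 ± 19.4 in Low, adjusted p = 0.486); Slc46a1 was next at 218 ± 22.4 and 207 ± 24.0 (adjusted p = 0.657).

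In fibrillar collagen and its processing 17 of 18 were tested and 2 passed unadjusted, in opposite directions: the prolyl hydroxylase P4ha1 (831 ± 102 in High, 899 ± 77.4 in Low, limma adjusted p = 0.343) and the collagen processing enhancer Pcolce (47.9 ± 12.5 and 41.4 ± 15.9, adjusted p = 0.546). Of 9 small leucine-rich proteoglycans 6 were tested and 0 passed unadjusted in limma; all 6 log2 differences were above 0, led by Dcn, with Aspn next (26.7 ± 8.65 in High, 23.0 ± 8.16 in Low, adjusted p = 0.647). Lum, a hallmark fibroblast gene of this family, reached at most 22 and did not pass the filter. In prostaglandin D2 synthesis 7 of 9 were tested and 0 passed unadjusted in limma; the smallest p were those of Ptges3 (1164 ± 139 in High, 1107 ± 162 in Low, adjusted p = 0.729) and Ptgs2 (37.8 ± 12.3 and 32.9 ± 11.7, adjusted p = 0.741).

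Of the leptomeningeal list, 27 of 33 were tested, 21 of them above 0 for High minus Low with a median log2 difference of 0.09; 2 passed unadjusted, Slc6a13 and the fibulin gene Fbln1 (61.0 ± 15.5 in High, 77.8 ± 26.8 in Low, limma adjusted p = 0.325). For females minus males 21 of 27 were above 0, median 0.09, and 7 passed unadjusted, 6 above 0 and 1 below, against 4.21% of all tested genes. Dcn, Col1a2 and Slc6a13 were among those 6. Here the list includes border genes already counted above: Dcn, Igf2, Col1a1, Col1a2, Ptgds, Slc6a13 and Slc6a20a. Its line and gender counts are therefore not separate from theirs. Of 9 tested choroid plexus markers, 2 passed unadjusted for line, Kl and the iodide carrier Slc5a5 (40.5 ± 14.1 in High, 56.8 ± 25.7 in Low, adjusted p = 0.343).

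Lists of other brain cells also leaned one way or the other. All 12 oligodendrocyte markers were below 0 for High minus Low, with a median of -0.21, and 9 of 12 passed unadjusted against 9.07% of all tested genes. They were led by Opalin (96.6 ± 33.1 in High, 126 ± 31.4 in Low, limma adjusted p = 0.157). All 11 astrocyte markers were above 0, with a median of 0.10 and 1 unadjusted, the connexin gene Gjb6 (424 ± 81.3 in High, 377 ± 56.1 in Low, adjusted p = 0.463). Of 11 endothelial markers 2 were above 0 (median -0.05, 1 unadjusted, Egfl7 at 420.2 ± 77.6 in High and 475 ± 76.1 in Low, adjusted p = 0.368). Of 10 microglial markers 3 were above 0 (median -0.07), and 2 passed unadjusted in opposite directions, led by the complement gene C1qc (264 ± 92.2 in High, 191 ± 53.8 in Low, adjusted p = 0.11). For 10 mural markers 5 were above 0 (median 0.08, 3 unadjusted, led by Myh11 at 176 ± 88.5 in High and 131 ± 53.9 in Low, adjusted p = 0.482), and for 13 ependymal markers 8 were (median 0.03, 0 unadjusted by limma, led by Cfap126 at 13.8 ± 8.8 and 11.1 ± 11.8, adjusted p = 0.641). For females minus males, 11 of 12 oligodendrocyte markers were above 0 (median 0.10), as were 7 of 10 mural (median 0.16), 8 of 11 astrocyte (median 0.07) and 8 of 11 endothelial ones (median 0.02). Of 13 ependymal markers 2 were above 0 for that contrast (median -0.20), and of 10 microglial markers 2 (median -0.04). The part of these cells in the values of the border genes was not tested.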

How the data were processed

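Poly(A) RNA-seq libraries of 48 mice were analysed from the gene and exon tables. The deposited values are a score: the authors had normalised their counts and rounded them, as the names of the deposited files and their whole numbers of similar total show, so these are not raw counts and no count model was used. The submitters' processing notes name the build mm9 and, with no role or order, edgeR 3.4.2, R 3.0.2, STAR 2.4.0, FastQC and CASAVA; the counter, strand setting, annotation release and normalisation method are not given in the sources used here. Depth behind single values is unknown, and no counting interval was given.

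Genes, lists and tests were chosen with earlier results of these data known. The 10 genes are all named. For each, the 3 tested genes with the highest Pearson r over mice are named. For each pathway list and each cell list described, called members are named, or else the 2 of smallest p or the first of them. Of the pairs, the 8 with the highest rho, the pairs among Ttr, Kl and Folr1, and the collagen pair are named. Choroid markers under the filter, Slc17a7 and single libraries were named after their values were seen. Group comparisons used limma 3.58.1 in R 4.3.3 with a mean-variance trend, 1 mean per group of 12 and all 48 libraries in 1 fit. Correlations used numpy 2.4.6 and pandas 2.3.3 with 100000 two-sided permutations, adjusted by Benjamini-Hochberg within each family, and figures matplotlib 3.10.9. The limma step was tested on simulated data. Spread was compared by fitting each mouse's absolute deviation from its group median in the same way. Symbols, transcripts, strand and union exon lengths came from GENCODE M21 (GRCm38) by Ensembl identifier, since the deposited exon values come with exon starts only; 32897 of 37620 genes had a symbol. Library GC slopes regress log2 values, each less its mean over libraries, on transcript GC content. Alternatives covered pseudocount, filter, scaling, library weights, the trend and leaving out single mice. P values rest on the variation among these mice only.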

Additional observations from a re-analysis of the deposited data

How the results depend on the processing

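No border gene was called in any of 1186 alternative values of the line, gender, interaction and spread contrasts; the smallest adjusted p was 0.0595, for Kl between the lines. Kl for High minus Low lay between 0.29 and 0.38 (log2) and, leaving out each mouse in turn, between 0.30 and 0.38. Signs turned 48 times, 38 of them on leaving out 1 mouse, and the cause was not tested. Each log2 value that turned was smaller in size than its SE in the main fit. Not all were close to 0: in the main fit the Col1a2 interaction was -0.069 ± 0.18 and Col1a2 in males 0.049 ± 0.13 (SE). With a pseudocount of 2 ppm, Ptgds for females minus males was -0.00203 and the Col1a1 spread for High minus Low -0.00292. With library weights, Col1a2 was -0.021 for High minus Low, 0.031 in females, -0.073 in males and 0.10 for the interaction, Slc6a20a in females 0.0030, and the Col1a1 interaction 0.051. Leaving out 1 mouse gave ranges for High minus Low of -0.020 (without High male 1) to 0.043 for Col1a2 and -0.0058 (without High female 6) to 0.054 for Slc6a20a, and for females minus males of -0.019 (without Low male 3) to 0.066 for Kl and -0.066 to 0.060 for Ptgds. Without High male 1, Col1a2 in males was -0.020, its interaction 0.00088, and rho of Ttr with Folr1 0.0016. That rho was 0.032 on linear values and 0.025 with a pseudocount of 0.1 ppm.

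Counts over all genes moved more. Library weights gave 80 genes for line, 7 for line in females and 15 for spread between lines. No filter gave 2 genes for line in females, 15 for spread between lines and 2 for spread between genders, and a filter of 5 ppm gave 5 for spread between lines. Pseudocounts of 0.1 and 2 ppm gave 2 and 1 for spread between genders. Leaving out 1 mouse gave 30 to 58 genes for line. Pairs called numbered 2 without removal of group means (Dcn with Igf2 added, rho 0.50, adjusted permutation p = 0.00652) and 2 without the 2 extreme mice (Slc6a13 with Col1a2 added, rho 0.53, adjusted permutation p = 0.00562). Without the filter, Ttr and Folr1 had log2 line differences of 0.04 and -0.13 (limma adjusted p = 0.884 and 0.793). No paired analysis was possible because the numbers in the labels pair no mice. Low values limit Ttr and Folr1, where 1 deposited count moves the rank of a library.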
